A study of Mus musculus with 4 samples.

Results

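Complement is a system of blood and tissue proteins that marks cells, microbes and debris for removal. In the classical pathway, started by the proteases C1r and C1s, C1s cuts C4 and C2. The pieces form an enzyme that cuts C3, the central protein on which all routes into the system meet. In the alternative pathway factor B (Cfb) and factor D (Cfd) build a second C3-cutting enzyme that feeds on its own product. Host cells hold the system in check with Serping1, the C1 inhibitor that blocks C1r and C1s, and with Cd59a, a membrane protein that stops assembly of the pore at the end of the cascade. Most of the circulating proteins come from the liver, but fibroblasts also make several of them.

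The 9 genes described here, C1r, C1s, C4a, C4b, C3, Cfb, Cfd, Serping1 and Cd59a, were taken by gene symbol from the annotation of an Agilent whole mouse genome array, out of 27745 names of genes or transcripts on it. They are read by 13 of the 41174 probes, printed as 22 of the 43379 gene features of each array. The cells were mouse embryonic fibroblasts (MEFs) of C57BL/6J mice, with the genotype Lats2-/- (KO) or Lats2+/+ (WT), where Lats2 is a kinase of the Hippo growth control pathway. Each genotype was grown in serum-containing medium to low density (subconfluent after 48 h) or to high density (3 to 5 days, contact inhibited). RNA of the low and high density cultures of 1 genotype was hybridised together on 2-colour arrays, once with high density RNA in Cy5 and once with exchanged dyes, which gave 2 arrays per genotype and 4 in all.

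The labels do not tie the exchanged arrays to separate cultures, so each genotype and density counted as 1 replicate, and no test or p-value is given for any difference. The spread given is that between the dye orientations, which is technical. How many embryos or cell lines lie behind each genotype was not stated for these arrays, and in a culture fewer cells of a type cannot be told apart from less RNA per cell. Lats2 itself, the check on the labels, went against the KO label at most of its probes. At 3 of 4 Lats2 probes the KO arrays were brighter, by 0.91 to 1.49 log2 units over both densities, and at the remaining probe they were dimmer (-0.63 at low and -1.26 at high density). A probe outside the deleted part does not check the label, and where the deletion lies relative to these probes was not analysed here. The study also assayed Lats2 protein in its KO MEFs by western blotting, which was not analysed here. KO and WT below follow the labels. Slide and scan day cannot be told apart from genotype, since both WT arrays shared 1 slide and 1 scan day, whereas the KO arrays lay on 2 slides scanned 7 months apart.

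Between 52.8% and 67.7% of features per channel were well above background, a flag the scanner software sets from the local background. A gene was called changed when its brightest probe differed by at least 2-fold (1 log2 unit), on average over the dye orientations and with the same sign in both. The technical SD of a probe between orientations ranged from 0.14 to 0.21 log2 units over the 5 contrasts. Under loess scaling 57.1% of the changed probes in WT and 61.3% of those in KO were higher at high density, against 43.9% and 40.3% when each array was only centred on its median, which moved the median of all probes in KO from 0.01 to -0.09. All 9 fibroblast markers, collagens Col1a1 and Col1a2 among them, were well above background in all channels. Of the marker lists for other cells, the defining genes Ptprc, Emr1 and Itgam (macrophages), Pecam1 and Cdh5 (endothelium), Adipoq and Plin (adipocytes) and Alb1 and Ttr (hepatocytes) were not well above background in any channel. Other genes of these lists were detected, Cd68 and Cd14 in all 8 channels and Csf1r and Lyzs in 6 (macrophages), Kdr in 2 and Tek in 1 (endothelium), Fabp4 in 6 and Cidec in 1 (adipocytes), and Tat in 8 and Afp in 3 (hepatocytes). Of the epithelial markers Krt18 was, in 2 channels.

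The promoters of C3 and of the genes for C1r and C1s are printed here because their transcripts carried the largest density effects among the members. The C3 effect was seen mainly in the WT cultures, and those of C1r and C1s in both genotypes. They run from 250 bases before to 50 bases after a RefSeq start site of GRCm38.p6, on the strand of the gene, and capitals mark every match to 5 short motifs. By accession the array's C1r is now C1ra and its C1s is C1s1. RefSeq gives C1s1 a further start site close by, not shown.
C3, chr17:57228087-57228386, minus strand: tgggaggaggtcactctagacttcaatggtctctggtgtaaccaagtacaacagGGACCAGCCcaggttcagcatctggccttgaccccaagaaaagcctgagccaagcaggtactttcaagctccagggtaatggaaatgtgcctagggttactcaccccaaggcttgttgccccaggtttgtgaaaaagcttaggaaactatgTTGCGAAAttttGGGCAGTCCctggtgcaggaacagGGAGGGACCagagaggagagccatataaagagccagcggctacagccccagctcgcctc
C1ra, chr6:124512371-124512670, plus strand: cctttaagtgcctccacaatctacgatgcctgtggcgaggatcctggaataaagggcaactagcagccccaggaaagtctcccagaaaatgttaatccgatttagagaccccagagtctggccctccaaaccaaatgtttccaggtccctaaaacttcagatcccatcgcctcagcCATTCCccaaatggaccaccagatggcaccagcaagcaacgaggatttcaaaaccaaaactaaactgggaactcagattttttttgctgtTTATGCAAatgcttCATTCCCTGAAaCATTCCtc
C1s1, chr6:124542310-124542609, minus strand: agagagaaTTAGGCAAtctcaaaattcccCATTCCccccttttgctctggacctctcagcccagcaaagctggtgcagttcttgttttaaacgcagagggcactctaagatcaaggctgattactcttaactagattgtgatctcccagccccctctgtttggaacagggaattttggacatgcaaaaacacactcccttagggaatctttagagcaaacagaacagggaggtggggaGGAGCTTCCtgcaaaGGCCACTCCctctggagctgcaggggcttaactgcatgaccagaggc

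The motifs, searched on both strands, were GGANNNNCC (NF-kB), TTCNNNGAA (STAT), TTTCNNTTT (interferon response), CATTCC (TEAD, the DNA-binding partners of the Hippo effectors YAP and TAZ) and TTGCNNAA (C/EBP). In C3 the C/EBP pattern began 45 bases before the start site, and NF-kB patterns began 196, 33 and 9 bases before it. In C1ra, CATTCC began 74 bases before and 30 and 42 bases after the start site, the second of these overlapping a STAT pattern, and a C/EBP pattern began 16 bases after it. The C1s1 window shown held 2 NF-kB patterns, and 1 TEAD and 1 C/EBP pattern that began 221 and 242 bases before the start site. The window of the other C1s1 start site held the NF-kB patterns and neither of the others. Such short patterns are common. Of 32851 promoters of this length, 48.4% held the NF-kB, 8.30% the STAT, 10.6% the interferon, 14.7% the TEAD and 10.8% the C/EBP pattern. Cd59a held only an interferon pattern and Cfd only an NF-kB pattern. C4a, C4b, Cfb and Serping1 had no entry in the promoter table used.

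**Figure D1:**
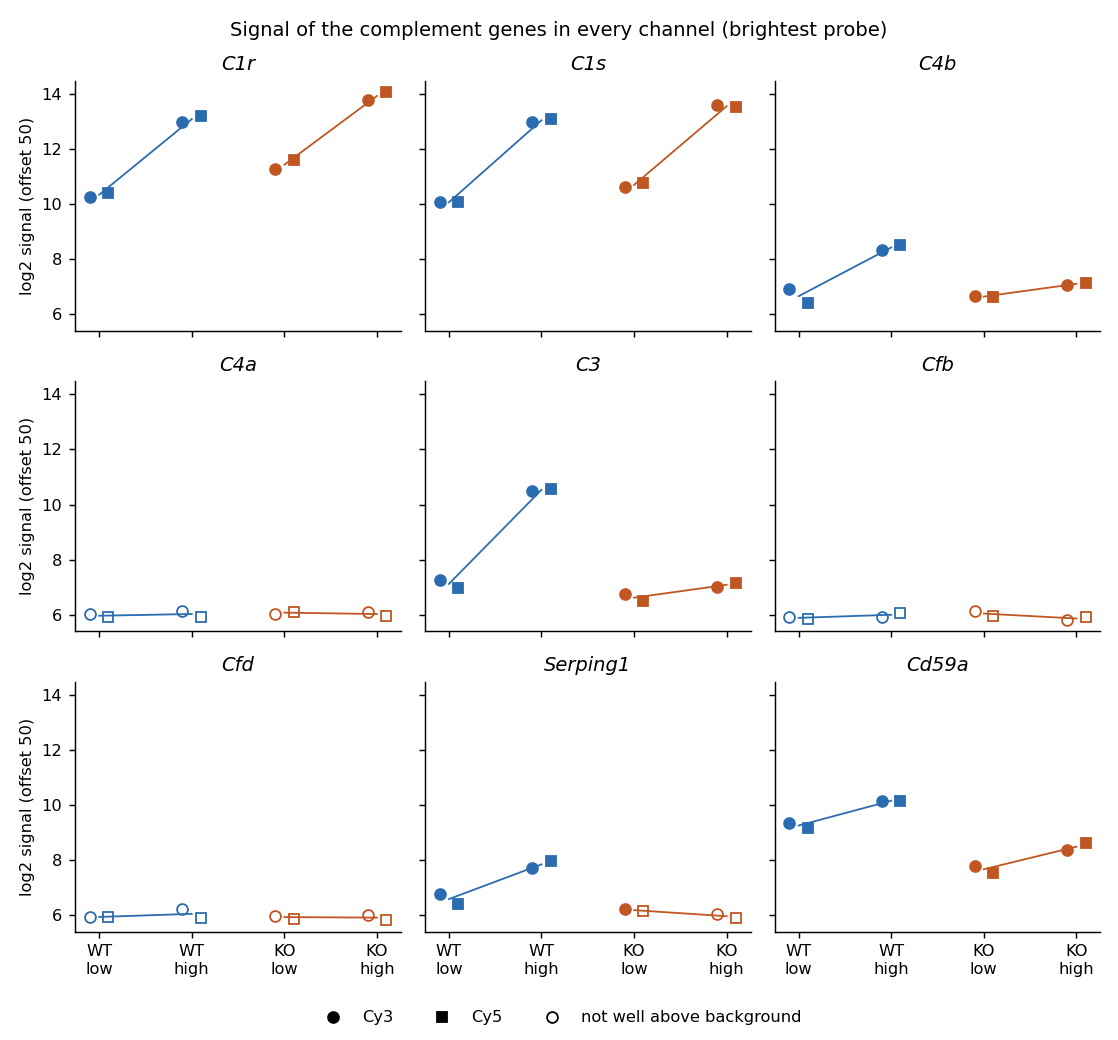
Log2 signal (normalised, with an offset of 50) of the brightest probe of each of the 9 genes in the 8 channels. Circles are Cy3, squares Cy5, open symbols channels not well above background, and lines join the means of low and high density in WT (blue) and KO (orange). C1r and C1s climb in both genotypes, C3 and C4b climb mainly in WT, Cd59a lies lower in KO at both densities, and C4a, Cfb and Cfd lie at background throughout.

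In WT cells 6 of the 9 genes gave a signal that could be compared between densities, and 5 of them, C1r, C1s, C4b, C3 and Serping1, were higher at high density. No member fell. Over all 14879 genes measured, 15.5% changed and 9.41% were higher. The median density effect of the 6 members was 2.26 log2 units, against 0.06 over all genes measured. In KO cells 5 members could be compared and 2, C1r and C1s, were higher, where 11.0% of 15443 genes changed and 7.15% were higher. The KO median of these 5 was 0.82 log2 units, against 0.06 over all genes.

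C1r and C1s, the paired proteases that start the classical pathway, rose together in both genotypes. The brightest C1r probe (chr6:124488653-124488712, plus strand, array annotation in build mm8) read 10.27 and 10.42 log2 units in the low density WT channels (Cy3, then Cy5) and 13.19 and 12.99 at high density (Cy5, then Cy3). In KO the same probe read 11.26 and 11.60 at low and 14.06 and 13.80 at high density. The channels of low and high density did not overlap in either genotype. The density effect on C1r was 2.75 log2 units in WT (2.92 and 2.57 in the orientations), 6.71-fold, and 2.50 in KO (2.80 and 2.19), 5.64-fold. The effect differed between KO and WT by -0.25, below the threshold of 1 log2 unit.

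The brightest C1s probe (chr6:124496429-124496488, minus strand) lay 7.717 kb from that of C1r on the opposite strand. It read 10.07 in both low density WT channels and 13.09 and 13.00 at high density. In KO it read 10.62 and 10.77 at low density, and 13.52 and 13.59 at high density. Every high density channel thus stood above every low density channel whatever the label. The density effect on C1s was 2.98 log2 units in WT (3.03 and 2.93), 7.88-fold, and 2.86 in KO (2.90 and 2.82), 7.26-fold. The difference of -0.12 was below the technical SD of that contrast, 0.19.

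The other probes of these genes gave the same direction with smaller values. A second C1s probe, 0.639 kb away, gave 1.81 in WT, where the orientations differed widely (1.29 and 2.34), and 2.63 in KO (2.41 and 2.85). A second C1r probe, 52.257 kb from the first, gave 1.55 in WT and 1.80 in KO. The locus holds the neighbouring copies C1ra and C1rb, and C1s1 and C1s2, in RefSeq, and the second C1r probe carries an accession that matched no current gene, so which copy it reads was not assigned. Averaging both C1r probes gave a 4.44-fold rise in WT in place of 6.71-fold.

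C3, the protein whose cleavage drives the rest of the cascade, was higher at high density in WT and not in KO by the same rule. Its brightest probe (chr17:56889328-56889387, minus strand) is printed 10 times on each array. At low density the WT channels read 7.27 and 6.97 log2 units, and at high density 10.57 and 10.50. In KO the readings were 6.74 and 6.49 at low and 7.16 and 7.01 at high density. The 2 high density WT channels stood apart, and the other 6 lay between 6.49 and 7.27. The density effect was 3.42 in WT (3.31 and 3.53), 10.7-fold, and 0.47 in KO (0.42 and 0.52), 1.38-fold. The KO effect less the WT effect was -2.95 log2 units.

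The 10 spots of C3 on each array gave the same picture. In WT they averaged 3.31 ± 0.110 (SD, n = 10 spots) with high density in Cy5 and 3.53 ± 0.0689 with high density in Cy3. In KO they averaged 0.417 ± 0.0915 and 0.518 ± 0.0441. The lowest WT spot, at 3.10, lay far above the highest KO spot, at 0.585. These spots share 1 RNA sample and their SD is that of printing and reading. From the processed signals of the scanner software, which carry no offset, the rise in WT was 19.3-fold and the KO effect 1.02 log2 units, just past the threshold. A second C3 probe, 21.122 kb away on the same strand, was not well above background in any of the 8 channels.

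**Figure D2:**
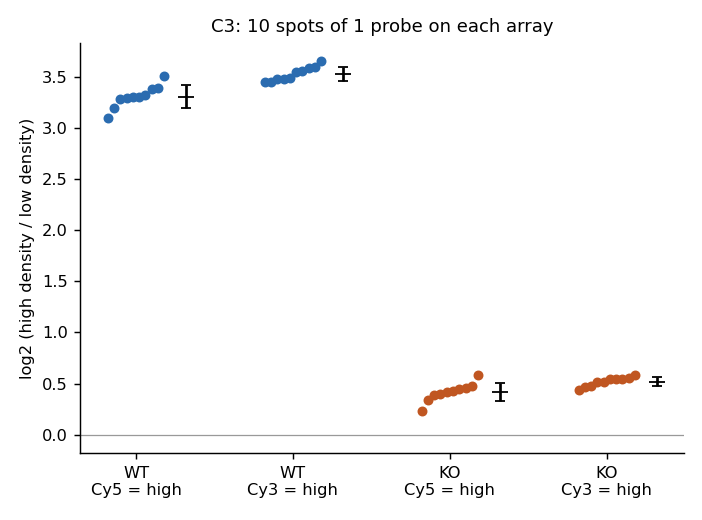
Log2 ratio of high over low density for the 10 spots of the brightest C3 probe on each of the 4 arrays. Points are spots and bars the mean ± SD over them. WT spots lie between 3.10 and 3.65 and KO spots between 0.232 and 0.585.

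C4b, which encodes the C4 protein that C1s cuts, followed C3 with a smaller size. Its probe (chr17:34337472-34337531) read 6.91 and 6.41 log2 units in the low density WT channels and 8.52 and 8.33 at high density. In KO it read 6.67 and 6.62 at low and 7.13 and 7.08 at high density. Again the high density WT channels were the highest of the 8. The density effect was 1.77 in WT (1.61 and 1.93), 3.41-fold, and 0.47 in KO (0.47 and 0.46), 1.38-fold, and the effects differed by -1.30. The WT value rose to 8.08-fold with the processed signals, which also took the KO value just past the threshold. C4a, the neighbouring copy that RefSeq lists as a transcribed pseudogene, was not well above background in any channel on its own probe. The copies are close in sequence, and RNA of one binding to the probe of the other was not tested.

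The alternative pathway genes gave no signal to compare. Cfb, which provides the protease of the second C3-cutting enzyme, and Cfd, also called adipsin, which activates it, were not well above background in any of the 8 channels. Their log2 readings stayed near the 5.64 that the offset alone gives. A change in these transcripts was not detectable on these arrays.

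The regulators behaved differently from each other. Serping1 (chr2:84566650-84568156) read 6.75 and 6.41 log2 units in the low density WT channels and 7.98 and 7.70 at high density. In KO it read 6.21 and 6.14 at low and 5.88 and 6.03 at high density, and only 1 of these 4 channels was well above background. WT therefore rose by 1.26 (1.23 and 1.29), 2.39-fold, while in KO no density effect could be measured. The WT rise was 3.68-fold with an offset of 10 and 6.00-fold with the processed signals. Cd59a (chr2:103915370-103915429) read 9.33 and 9.17 at low and 10.15 in both high density WT channels. In KO it read 7.80 and 7.52 at low and 8.62 and 8.35 at high density. Its density effects, 0.90 in WT (0.82 and 0.98) and 0.82 in KO (0.82 in both), stayed under the threshold, and the second Cd59a probe gave 0.90 and 0.57. With the processed signals the KO effect of Cd59a was 1.02, just past the threshold.

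**Figure D3:**
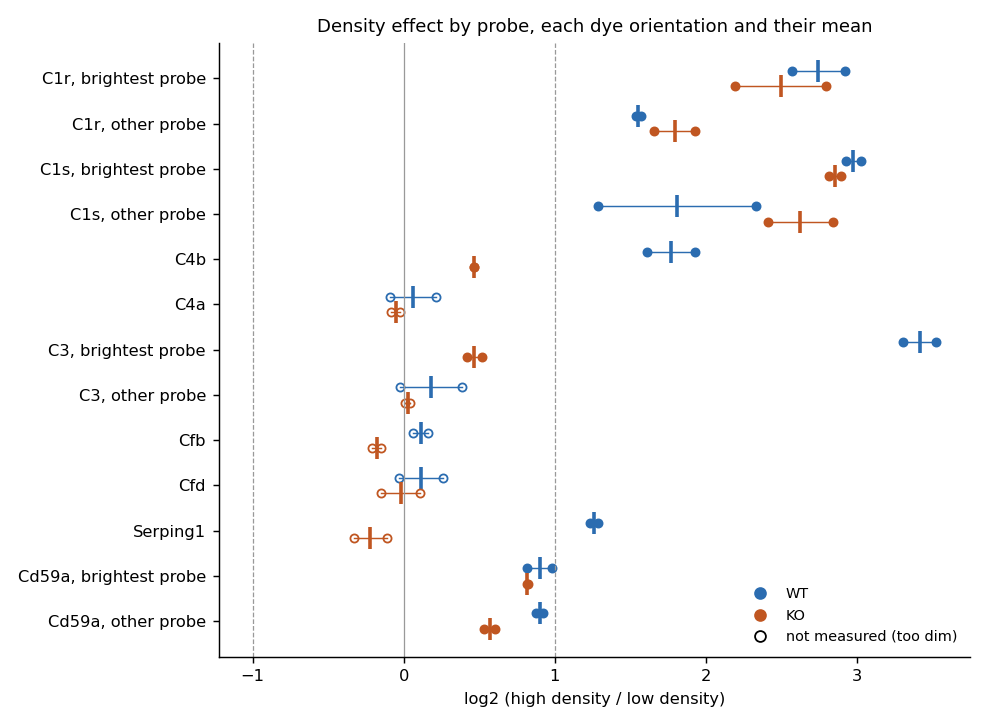
Density effect, as log2 of high over low density, for all 13 probes of the 9 genes in WT (blue) and KO (orange). Dots are the dye orientations, vertical ticks their means, open dots probes too dim to measure, and dashed lines the 2-fold threshold. WT and KO lie close at the brightest probes of C1r and C1s and part for C3 (3.42 against 0.47) and C4b (1.77 against 0.47).

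Over the 5 members measured at both densities in both genotypes, the KO effect less the WT effect passed the threshold for C3 and C4b, both lower in KO, and for none of C1r, C1s and Cd59a. Of 14168 genes, 9.54% passed it in either direction. The median over the 5 members was -0.25 log2 units, against 0.02 over all genes measured.

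Between genotypes, low density cultures differed at 2 of the 6 members measured, where 15.7% of 15253 genes changed and 8.37% were lower in KO. C1r was higher in KO by 1.09 log2 units (0.99 and 1.19), 2.13-fold, and Cd59a differed by -1.59 (-1.53 and -1.65), 3.01-fold lower in KO. The C1r call is a narrow one. It fell to 0.99 without either of the arrays with high density in Cy3, which leaves only the comparison within Cy3, and to 0.90 with its probes averaged. C3 gave -0.50, C4b -0.02 with opposite signs in the orientations, C1s 0.63 and Serping1 -0.40. The second C1s probe gave -0.48, with opposite signs as well (-1.23 and 0.28). None of these passed the threshold. With the processed signals C3 (-1.11) passed it too. Serping1 also did, but 1 of its low density KO channels was not well above background and its size there depends on the processing. The median of the 6 members was -0.21.

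At high density 4 of the 6 members measured were lower in KO and none higher, where 14.5% of 15617 genes changed and 7.80% were lower. C3 differed by -3.45 log2 units (-3.49 and -3.41), 10.9-fold lower in KO. C4b differed by -1.32 (-1.39 and -1.25). Cd59a differed by -1.67, close to its difference at low density, and its second probe by -1.97. For Serping1 the KO channels were not well above background, and WT was at least 3.51-fold higher. This bound sets the WT mean against the dimmest signals well above background on the KO arrays. With every channel required to be well above background, Serping1 left the comparison and 3 of 5 members were lower. With the processed signals the differences were larger, 20.5-fold for C3 and 4.18-fold for C4b. C1r (0.84) and C1s (0.51) were not past the threshold, though C1r was (1.10) without scaling between arrays. The median of the 6 members was -1.49 log2 units, also with Serping1 at its bound, and -1.32 over the 5 without it, against 0.03 over all genes.

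**Figure D4:**
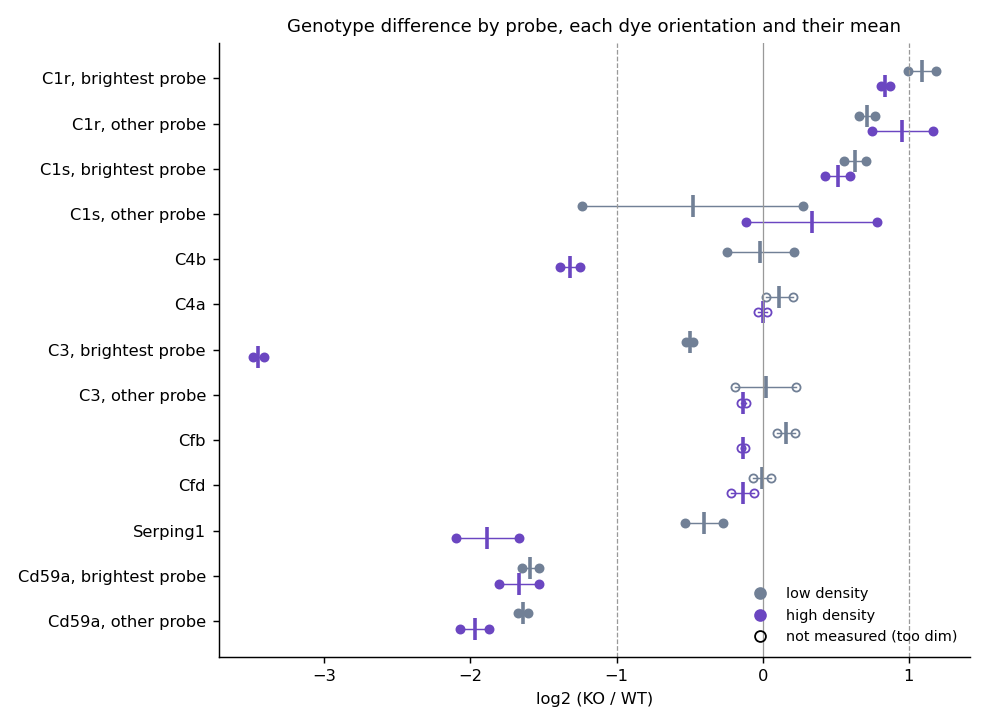
Genotype difference, as log2 of KO over WT, at low (grey) and high density (purple) for all 13 probes. Dots are the dye orientations, ticks their means, open dots probes too dim to measure, and dashed lines the 2-fold threshold. C3 and C4b lie far lower at high density than at low density, while both Cd59a probes lie between -1.97 and -1.59 at either density.

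Ordered by mean level, C3 and Cd59a ran from KO low through KO high and WT low to WT high. For C3 the middle conditions differed by 0.03 log2 units and their channels overlapped. At their brightest probes C1r and C1s ran from WT low through KO low and WT high to KO high, with no overlap between neighbours in that order. The second C1r probe gave the same order. At the second C1s probe KO low lay below WT low, whose channels (9.24 and 7.67) enclosed those of KO low (8.01 and 7.95). C4b ran from KO low to WT low, KO high and WT high, and its low density genotypes overlapped. Serping1 was higher in WT high than in WT low, and its KO conditions, with 1 of 4 channels well above background, have no order. Among 1557 genes measured in all 8 channels that spanned at least 2 log2 units over the conditions, those most like C3 were Plec1 (Pearson r = 0.997), Def6 (0.997) and Vav3 (0.996), over 8 channels that share 4 arrays. Plec1 encodes the cytoskeletal linker plectin.

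Of 42 other complement genes on the array, 16 could be measured in WT and 19 in KO. In WT 3 were higher at high density, Clu, C8g and Cfi, and Masp1 was lower (-1.12), with a list median of 0.14 log2 units. Over all genes 15.5% changed and 9.41% were higher. C8g and Cfi were not well above background in WT at low density. Their high density means were 2.53-fold and 2.10-fold above those dim readings. The Masp1 call rested on the brightest of its 4 probes, since the other 2 measured gave -0.45 and -0.43. In KO 4 were higher, Clu, Hc, Cpn2 and C8g, and Cd93, a receptor-like membrane protein once taken for a C1q receptor, was lower (-1.74), with a median of 0.30, where 11.0% of all genes changed and 7.15% were higher. Clu, clusterin, an inhibitor of the terminal pore, rose by 2.88 in WT and 3.69 in KO. Hc encodes C5, the precursor of the terminal pathway. Only 1 of its 2 KO channels at low density was well above background.

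Of the rest, C4bp, a fluid-phase inhibitor that binds C4b, was lower in KO at both densities (-2.10 and -1.01), and Cfi, the protease that inactivates C3b and C4b, was at least 2.33-fold higher in WT than in KO at high density. Genes higher in KO at high density were Masp1, a protease of the lectin pathway, at its brightest probe (1.30, against 0.72 at the only other probe measured), Hc, at least 2.74-fold, and Cpn2, at least 2.81-fold, a subunit of the enzyme that inactivates C3a and C5a. Cd93 was higher in KO at low density (2.03). Thus 2 of 17 genes changed at low and 5 of 20 at high density, against 15.7% and 14.5% of all genes. Of the latter 5, Hc and Cpn2 in WT and Cfi in KO were not well above background. These entered the comparison only through the other genotype. The median over the list was 0.15 at low and 0.17 at high density, each over the genes measured (17 and 20). Of the C1q chains, which macrophages make, C1qa and C1qc were not well above background in any channel. C1qb was in 7 of 8, with readings of 6.46 to 6.93 log2 units, and passed the threshold in no contrast.

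A list of 19 acute phase genes and inducers of complement transcription, written from general knowledge, was set beside these values. Like the list of other complement genes, it was chosen with earlier results of these data known. Its counts beside the shares of all genes are therefore description only. In WT 5 of 12 measured genes were higher at high density and none lower, against 9.41% of all genes higher, with a median of 0.80 log2 units. They were Ptx3 (3.44), a soluble pattern recognition protein that binds C1q, Hp, haptoglobin (2.53), and the transcription factors Irf1 (1.39), Cebpd (1.30) and Cebpb (1.25). Second probes of Irf1 (0.50) and Cebpb (0.87) stayed under the threshold in WT, and in KO that of Cebpb passed it (-1.02) where the brightest did not (-0.89). In KO none of 11 was higher and Il6, the main inducer of the acute phase response, was lower (-1.60), where 11.0% of all genes changed. The KO effect less the WT effect passed the threshold for Ptx3 (-3.91), Il6 (-2.23), Cebpb (-2.14) and Cebpd (-1.56), each lower in KO, out of 11 measured, against 9.54% of all genes in either direction. Il6 was well above background in 1 of 2 channels in WT at low and in KO at high density.

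Cebpb, one of the factors for which the C/EBP pattern in the C3 window is named, read 11.73 and 11.66 log2 units in low density and 12.98 and 12.92 in high density WT channels. In KO it read 12.33 and 12.57 at low and 11.53 and 11.60 at high density. The order of the densities was thus opposite in the genotypes. Hp read 9.18 and 9.17 at high density in WT and was at least 8.22-fold higher there than in KO, where it was not well above background. Between genotypes at low density, 4 of 12 genes of the list passed the threshold, against 15.7% of all genes. Ptx3 was higher in KO by 4.64, and by 4.71 and 1.02 at its other probes, and Il6 was higher by 1.33, while Socs3 (-1.07) and Il6st (-1.04) were lower. At high density Hp and Cebpb (-1.38, and -0.94 at its second probe) were lower in KO and none of the 12 was higher, against 14.5% of all genes changed and 7.80% lower. Saa3, Orm1, Il1b, Tnf, Ifng and Ifnb1 were too dim to measure. Lcn2 was not measured because its dyes disagreed, with 8.31 and 8.25 in the Cy3 and 5.88 and 5.96 in the Cy5 channels of WT. Whether any of these genes acts on C3 or C4b was not tested.

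**Figure D5:**
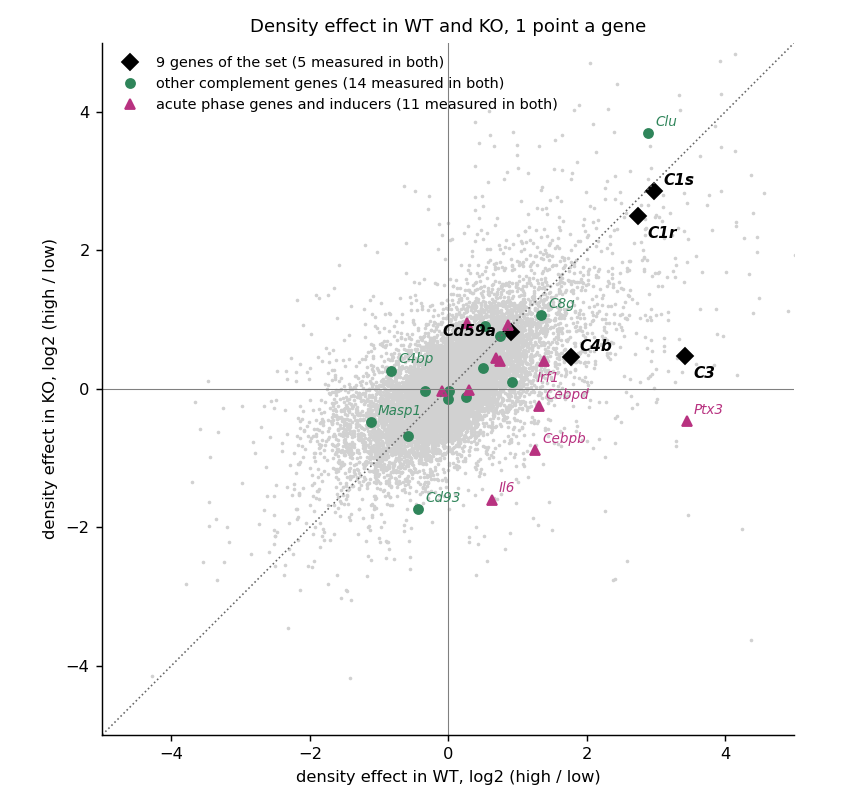
Density effect in WT (x axis) against that in KO (y axis), both log2 of high over low density, for 14168 genes measured in both (grey, 11 outside the axes). Black diamonds are the members, green circles other complement genes, pink triangles acute phase genes and inducers, and the dotted line marks equal effects. C1r and C1s lie close to that line, and C3 (3.42, 0.47), C4b and Ptx3 lie well under it.

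Markers of other cells moved with genotype in places. Among 9 macrophage markers the summed signal was 1081 to 1193 in WT and 1849 to 5741 in KO channels. Lyzs, lysozyme, read 14.9-fold higher in KO at low density, where it was not well above background in WT. At high density it was higher in KO by 4.75 log2 units. Of the other macrophage markers detected, Cd14 was lower in KO (-1.80 at low and -1.59 at high density), Cd68 gave -0.10 and -0.38, and Csf1r gave 0.43 and 0.57. Ptprc, Emr1, Itgam, Fcgr1 and Tyrobp were not well above background in any channel. Among 5 adipocyte markers the sum was 796 to 1753 in WT and 312 to 399 in KO, through Fabp4, a fatty acid carrier, which rose in WT (1.37). At high density in KO it was not well above background. Its readings there were 2.12-fold lower than at low density and 22.8-fold lower than in WT. Adipoq, Plin and Lep, and the adipocyte product Cfd among the members, were not well above background in any channel. The part of these markers in the values of C3 and C4b was not tested.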

How the data were processed

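Each of the 4 two-colour arrays was scanned by the authors and read with Agilent Feature Extraction 10.5.1.1. The deposited scanner files hold mean spot intensity and median local background intensity for Cy3 and Cy5, processed signal intensity, flags, and a log10 ratio of Cy5 over Cy3. The deposited series matrix holds the same log10 ratio, rounded and turned to high over low density. The authors' fold changes were not used.

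From the raw intensity, background was corrected by normexp (offset 50), which makes ratios of dim probes smaller, and each array was scaled by loess in limma 3.58.1 (R 4.3.3). Control features had weight 0 and flagged features were left out. Features of a probe were averaged. For genotype contrasts the channels were scaled between arrays (Aquantile) and compared within a dye. To be measured, a probe had to exceed background (the software's flag) in both orientations, at either density for a density effect and in either genotype for a genotype difference. A gene was represented by its brightest probe over the 4 arrays. Arrays have no read depth, and their number limits the precision. The methods name a t-test, which 1 replicate per group does not allow. Tables were made with Python 3.11.15, numpy 2.4.6 and pandas 2.3.3, and the rule was tested on simulated data.

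The members and the lists of genes, markers and motifs were chosen with earlier results of these data known. All members are named, and of the other complement genes those past the threshold in any contrast. From each of the 2 gene lists 1 gene was left out and is not reported here. Alternatives were an offset of 10, the processed signals, the series matrix, median centring, other filters and scalings, a 1.4-fold threshold, the mean over the probes of a gene, and each array left out. RefSeq (GRCm38.p6) was used for current names and promoters only, and 12 of the 13 member probes matched it by accession. Positions of probes, as the array design lists them (mm8), were neither converted nor assigned to exons.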

Additional observations from a re-analysis of the deposited data

Results flagged for a closer look

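For 5 genes of the lists set beside the members, both WT arrays moved one way with density and both KO arrays the other, and the difference of the effects, KO minus WT, passed 2-fold. The difference itself was not tested, since there was 1 replicate per genotype. C4bp gave -0.83 on the log2 scale in WT and 0.26 in KO, neither past the threshold, with a difference of 1.09. Ptx3 gave 3.44 in WT and -0.47 in KO, a difference of -3.91. A dimmer Ptx3 probe did not move in opposite directions (2.07 in WT and 0.23 in KO), though its difference was -1.84. Il6 gave 0.63 and -1.60, a difference of -2.23, with 1 of 2 channels well above background in WT at low and in KO at high density, so that these sizes rest in part on channels at background. Cebpb gave 1.25 and -0.89, a difference of -2.14, and Cebpd gave 1.30 and -0.25, a difference of -1.56. None of the 9 members was measured with opposite directions in the genotypes.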

How the results depend on the processing

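None of the members that passed the 2-fold rule changed direction under any alternative run. For some alternatives this was fixed in advance. The rule asks for the same sign in both orientations, so leaving out arrays could not reverse a call. The filters on dim probes do not change a value. Of 57 counts of changed members under alternatives, 50 stayed within 1.5 times the value reported, as did 40 of 52 counts of changed probes. Of 291 values of single members, 221 moved by less than the technical SD and 70 by more. The 221 include values that could not move, under the filters on dim probes and, for genes with 1 measured probe, the probe mean. In contrasts between genotypes, leaving out an array also removed its partner of the same dye orientation. Each such value was therefore counted for both arrays. With the processed signals 5 members passed the rule for the density effect in KO, and 4 for the genotype difference at low density. The series matrix also gave 5 in KO. For the genotype difference at low density the 1.4-fold threshold gave 4 members, the mean over probes 1, and leaving out 1 array 1 to 2. The processed signals gave 5829 changed probes for density in WT, 4866 for density in KO, 3149 for the difference of these, and 6305 and 5882 for genotype at low and high density, against 3012, 2271, 1724, 3249 and 3077 as reported. The series matrix gave 5824 in WT and 4858 in KO. At 1.4-fold the counts were 8578, 8168, 6125, 9395 and 8877 in the same order. With 1 array left out they ran from 3066 to 3073 (density, WT), 2454 to 2459 (density, KO), 1764 to 1853 (difference), 3261 to 3413 (genotype, low) and 2889 to 3574 (genotype, high). The offset is part of the construction of the reported values and shrinks ratios of dim probes, and the cause of the other shifts was not tested. Density effects are ratios within an array, and genotype differences were taken within a dye. With 1 replicate per genotype and density no paired test was possible, and none was run. Cfb, Cfd and C4a were too dim on these arrays for any comparison, and Serping1 too dim in KO.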
